A study of Mus musculus with 2 samples.

Results

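The Mir106b-25 and Mir106a-363 clusters are a pair of paralogous groups of microRNA genes, related to each other and to the Mir17-92 cluster. Their 9 genes were chosen by symbol, from 1973 microRNA genes in the deposited tables: Mir106b, Mir93 and Mir25 in the first cluster, and Mir106a, Mir18b, Mir20b, Mir19b-2, Mir92-2 and Mir363 in the second. They were measured by sequencing the short RNAs in total RNA from livers of newborn B6NCrl mice at postnatal day 0. Replicate 2 is the liver of pup 2 and replicate 1 the liver of pup 1 of the same pregnancy, with 1 library each and sex not collected. Neither pup carried a treatment or a mutation named in the labels, so the data form 1 group of 2 pups, and the comparisons are between genes, between clusters and between the pups.

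A microRNA is cut from a hairpin and guides repression of messenger RNAs that pair with its seed, the bases 2 to 8 counted from its 5′ end. MicroRNAs with the same seed share most predicted targets. Mir106b-25 lies inside Mcm7, which encodes a subunit of the helicase that opens DNA for replication. Mir106a-363 lies on the X chromosome. MicroRNAs with the miR-17 seed are known to repress the cell-cycle inhibitor Cdkn1a. In mice, loss of Mir17-92 is lethal around birth, whereas mice without Mir106b-25 or without Mir106a-363 are viable.

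The seed-bearing arms of the 9 members are shown first, because the seeds tie the clusters together and near-identical letters limit what can be counted. The letters are the RefSeq mature sequences on GRCm38.p6 (mm10), 5′ to 3′, with the seed in capitals. All 9 members matched the RefSeq table. The first 3 arms are those of Mir106b-25 and the other 6 those of Mir106a-363.
Mir106b (miR-106b-5p): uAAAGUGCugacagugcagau
Mir93 (miR-93-5p): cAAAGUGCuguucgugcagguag
Mir25 (miR-25-3p): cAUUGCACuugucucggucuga
Mir106a (miR-106a-5p): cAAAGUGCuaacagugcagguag
Mir18b (miR-18b-5p): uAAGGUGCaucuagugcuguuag
Mir20b (miR-20b-5p): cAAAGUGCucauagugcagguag
Mir19b-2 (miR-19b-3p): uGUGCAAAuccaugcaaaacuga
Mir92-2 (miR-92a-3p): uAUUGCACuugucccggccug
Mir363 (miR-363-3p): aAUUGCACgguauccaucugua

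The 9 arms fall into 4 seeds. Mir106b, Mir93, Mir106a and Mir20b share AAAGUGC, the miR-17 seed. Mir25, Mir92-2 and Mir363 share AUUGCAC, the miR-25/92 seed. Mir18b has AAGGUGC, the miR-18 seed, and Mir19b-2 has GUGCAAA, the miR-19 seed. Both clusters therefore hold the miR-17 and miR-25/92 seeds, while the miR-18 and miR-19 seeds occur in Mir106a-363 and not in Mir106b-25.

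The arms of Mir17 and Mir20a, the miR-17 seed genes of Mir17-92, are given for comparison with the members.
Mir17 (miR-17-5p): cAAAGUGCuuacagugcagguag
Mir20a (miR-20a-5p): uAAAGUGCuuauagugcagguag
With positions counted from 1 at the 5′ end and the base of Mir17 written first, Mir106a differed from Mir17 at 1 of 23 positions, U10A. Mir20b differed from Mir17 at 2 positions, U10C and C12U. Mir106b differed from Mir17 at 3 of 21 positions (C1U, U10G and G20A) and Mir93 at 4 of 23 (U10G, A11U, C12U and A13C). Between the clusters, Mir106b and Mir106a were identical at 18 of 21 positions and Mir93 and Mir20b at 20 of 23. Mir25 and Mir363, in contrast, shared the seed but only 9 of 22 positions in all.

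A pair of members has a second locus with the same mature letters: Mir92-2 shares its arm with Mir92-1, and Mir19b-2 shares its arm with Mir19b-1. Reads that map to several loci are on no gene in the deposited counts. The hairpins below show how far the identity runs, with the stretch common to both loci in capitals.
Mir92-2: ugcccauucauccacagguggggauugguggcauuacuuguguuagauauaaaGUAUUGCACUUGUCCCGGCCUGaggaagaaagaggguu
Mir92-1: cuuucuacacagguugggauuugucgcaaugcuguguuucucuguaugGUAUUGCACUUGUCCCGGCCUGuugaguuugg
Mir19b-2: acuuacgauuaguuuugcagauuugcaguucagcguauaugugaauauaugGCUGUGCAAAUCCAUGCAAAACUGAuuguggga
Mir19b-1: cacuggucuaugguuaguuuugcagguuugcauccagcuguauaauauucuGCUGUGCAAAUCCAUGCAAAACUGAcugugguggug
The common stretch is 22 bases in the Mir92 pair and 25 bases in the Mir19b pair. A read that lies wholly inside it has both loci as perfect matches. Levels of Mir92-2 and Mir19b-2 therefore leave out an unknown number of reads. The bases next to the common stretch differ between the loci. Whether reads of Mir92-1 or Mir19b-1 with a changed or added base were counted on these members was not tested. Among 1894 microRNA hairpins compared, the longest stretch shared by the other 7 members with any other locus was 17 bases, between Mir18b and Mir18.

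The libraries held 4538427 counts on the strand of a microRNA gene in replicate 2 and 3422622 in replicate 1. Levels are counts per 1000000 of these (CPM), and multimapping reads, which no gene holds, were 24.7% of the reads of replicate 2 and 25.2% of those of replicate 1. The limit set by a count of 0 was 0.661 CPM in replicate 2 and 0.877 CPM in replicate 1, and all intervals are exact, at 95%, and cover counting error only. The liver label was checked against markers: the hepatocyte genes Mir122, Mir192 and Mir194-2 reached a sum of 366126 CPM in replicate 2 and 354080 CPM in replicate 1. Erythroid genes (Mir451a, Mir144, Mir486) summed to 5150 and 5309 CPM, leukocyte genes (Mir223, Mir155, Mir150) to 8010 and 8723 CPM, in the same order of replicates. The endothelial gene Mir126a had 69174 and 65978 CPM, mesenchymal genes 15777 and 14983 CPM, epithelial genes 6038 and 6212 CPM, pancreas genes 2110 and 1945 CPM and the neural gene Mir137 19.4 and 16.9 CPM, again replicate 2 before replicate 1. The other neural gene listed, Mir124-2, was not found by its symbol and has no value here. Muscle genes (Mir206, Mir133b) stood apart at 1008 CPM in replicate 2 and 136 CPM in replicate 1. In whole liver, fewer cells of a type and less RNA per cell cannot be told apart.

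In the newborn liver, the counts on Mir106b-25 were well above those on Mir106a-363. The sum of its 3 genes was 7202 CPM in replicate 2 and 8110 CPM in replicate 1, a mean of 7656 ± 642 CPM (SD, n = 2 pups). The sum of the 6 genes of Mir106a-363 was 418 CPM in replicate 2 and 467 CPM in replicate 1, a mean of 442 ± 35.1 CPM. The lowest value of the first cluster was thus far above the highest of the second. Within a library, Mir106b-25 had 17.2 times the counts of Mir106a-363 in replicate 2 (interval 16.5 to 18.1) and 17.4 times in replicate 1 (16.5 to 18.3), a mean of 17.3 ± 0.0777.

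The gap between the clusters was much larger than the spread between the pups, and the intervals of this ratio overlapped between the libraries. Reads of miR-92a and miR-19b that match both of their loci are missing from Mir106a-363, and any that came from it would lower the ratio. Any reads of Mir92-1 or Mir19b-1 counted on Mir92-2 or Mir19b-2 would act the other way, which was not tested. No p is given, since the smallest value an exact two-sided permutation of signs can reach with 2 pups is 0.5. Without Mir19b-2 and Mir92-2, whose letters occur at a second locus, the ratio was 26.1 and the mean of Mir106a-363 fell to 295 CPM. Mir106b-25 held 0.720% of microRNA counts in replicate 2 (0.712% to 0.728%) and 0.811% in replicate 1 (0.802% to 0.821%). Mir106a-363 held 0.0418% in replicate 2 (0.0399% to 0.0437%) and 0.0467% in replicate 1 (0.0445% to 0.0491%).

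The Mir106b-25 hairpins lie on the minus strand of chromosome 5 within 498 bases, in the order Mir106b, Mir93, Mir25 along the strand. Mir106b (ENSMUSG00000065514.1) is at chr5:138165737-138165818, Mir93 (ENSMUSG00000065527.1) at chr5:138165523-138165610 and Mir25 (ENSMUSG00000065394.1) at chr5:138165321-138165404 on mm10. All 3 lie in intron 13 of the Mcm7 transcript that has 15 exons. Mir93 and Mir25 also lie in an exon of a short Mcm7 transcript of 2 exons.

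Mir93, a miR-17 seed gene, was the highest of all 9 members. It had 3534 CPM in replicate 2 (16040 counts) and 4354 CPM in replicate 1 (14901 counts), a mean of 3944 ± 579 CPM. Mir106b, with the same seed, had 3069 CPM in replicate 2 (13930 counts) and 3187 CPM in replicate 1 (10907 counts), a mean of 3128 ± 83.0 CPM. Mir93 was above Mir106b in each pup, and the pups' values did not overlap between the genes. The ratio of Mir93 to Mir106b was 1.15 in replicate 2 (1.13 to 1.18) and 1.37 in replicate 1 (1.33 to 1.40), so its size differed between the libraries by more than counting error.

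Mir25, the miR-25/92 seed gene of the cluster, was well below its neighbours. It had 599 CPM in replicate 2 (2717 counts) and 569 CPM in replicate 1 (1949 counts), a mean of 584 ± 20.7 CPM. The ratio of Mir93 to Mir25 was 5.90 in replicate 2 and 7.65 in replicate 1. Mir25 made up 7.67% ± 0.913 of the counts of the cluster, Mir93 51.4% ± 3.26 and Mir106b 41.0% ± 2.35. Among all 1973 genes, Mir93 ranked 38 by mean CPM, Mir106b 45 and Mir25 98.

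**Figure D1:**
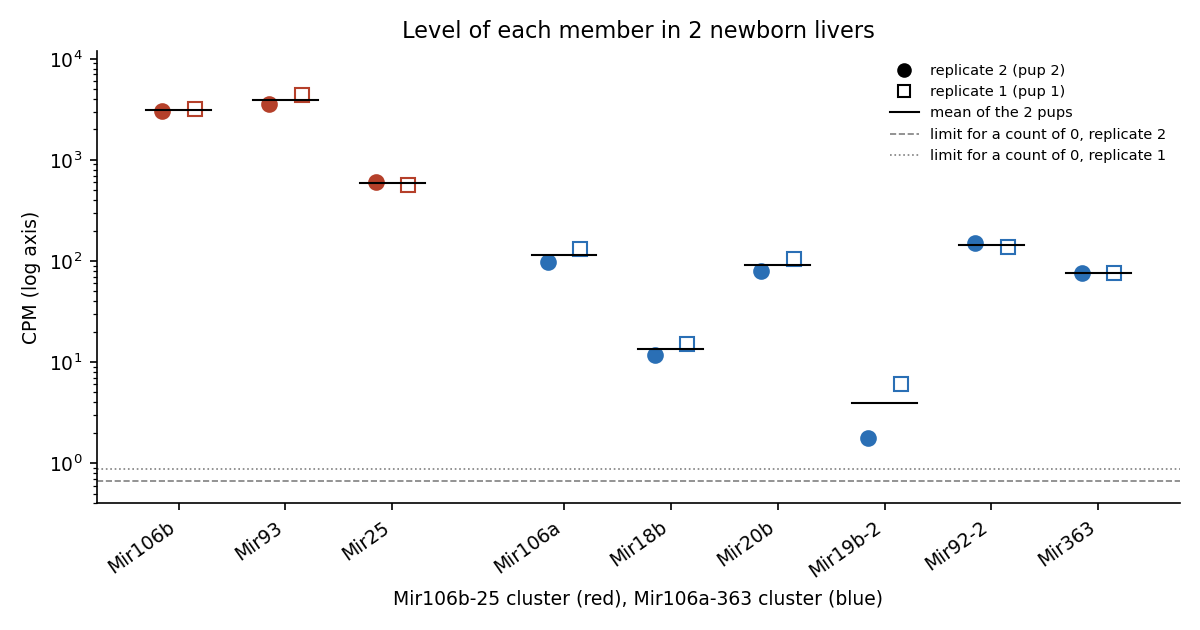
Level of each member in CPM on a log axis, with replicate 2 as a filled circle and replicate 1 as an open square, the mean of the 2 pups as a black line and the limits for a count of 0 as grey lines. By the counted reads, each member of Mir106b-25 (569 CPM or more) lies above each member of Mir106a-363 (151 CPM or less) in both pups. Reads of Mir92-2 and Mir19b-2 that fit a second locus are not included.

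The Mir106a-363 hairpins lie on the minus strand of the X chromosome within 875 bases, in the order Mir106a, Mir18b, Mir20b, Mir19b-2, Mir92-2, Mir363. Mir106a (ENSMUSG00000065456.1) is at chrX:52742503-52742567 and Mir363 (ENSMUSG00000070106.1), at the other end, at chrX:52741693-52741767 on mm10. Between them lie Mir18b (ENSMUSG00000077111.2, chrX:52742331-52742413), Mir20b (ENSMUSG00000076041.1, chrX:52742113-52742192), Mir19b-2 (ENSMUSG00000065473.1, chrX:52741983-52742066) and Mir92-2 (ENSMUSG00000065613.1, chrX:52741838-52741928). Mir106a overlaps the end of annotated transcripts of the noncoding gene Kis2 by at most 5 bases, and the other 5 hairpins lie beyond it.

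Mir92-2, with the miR-25/92 seed, had the highest count of this cluster although its arm is shared with another locus. It had 151 CPM in replicate 2 (684 counts) and 137 CPM in replicate 1 (468 counts), a mean of 144 ± 9.88 CPM. Mir363, with the same seed, had 75.8 CPM in replicate 2 (344 counts) and 75.4 CPM in replicate 1 (258 counts), nearly the same level in both pups. The values of the 2 genes did not overlap between the pups.

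Mir106a, a miR-17 seed gene, had 97.4 CPM in replicate 2 (442 counts) and 130 CPM in replicate 1 (446 counts), a mean of 114 ± 23.3 CPM. Mir20b, with the same seed, had 80.2 CPM in replicate 2 (364 counts) and 103 CPM in replicate 1 (354 counts), a mean of 91.8 ± 16.4 CPM. Their values overlapped between the pups, and the ratio of Mir106a to Mir20b was 1.21 in replicate 2 and 1.26 in replicate 1. Mir106a had 1.15% of the counts of Mir17 in replicate 2 and 1.22% in replicate 1, and the arms differ by 1 base. Mir20b had 0.944% of the counts of Mir17 in replicate 2 and 0.972% in replicate 1. How far reads of Mir17 with an error at the differing base contribute to Mir106a was not tested.

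The remaining members had few counts, and those of Mir19b-2 leave out reads that fit both of its loci. Mir18b had 11.7 CPM in replicate 2 (53 counts) and 15.2 CPM in replicate 1 (52 counts). Mir19b-2, with the miR-19 seed, had 1.76 CPM in replicate 2 (8 counts) and 6.14 CPM in replicate 1 (21 counts), above the limits for a count of 0 in both pups. Mir19b-2 was the member with fewer than 10 counts in a library, and the other 8 had at least 10 in both. The members of Mir106a-363 ranked from 162 (Mir92-2) to 298 (Mir19b-2) among all genes.

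Members were ordered by mean level, which for Mir92-2 and Mir19b-2 leaves out reads that fit both of their loci. In this order, 5 of 8 neighbouring pairs were further apart than the sum of their SDs. The pairs that were not are Mir92-2 and Mir106a, Mir106a and Mir20b, and Mir20b and Mir363. Within the first and the last of these pairs the pups' values nevertheless did not overlap, whereas those of Mir106a and Mir20b did. Between genes that are not neighbours in the order, Mir92-2 was apart from Mir20b and from Mir363, and Mir106a from Mir363, by more than the sum of their SDs. Levels are counts per hairpin with both arms together, and the seed-bearing arms are 21 to 23 bases long, so no length correction was made. Ligation and amplification may favour some sequences over others, which was not measured.

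**Figure D2:**
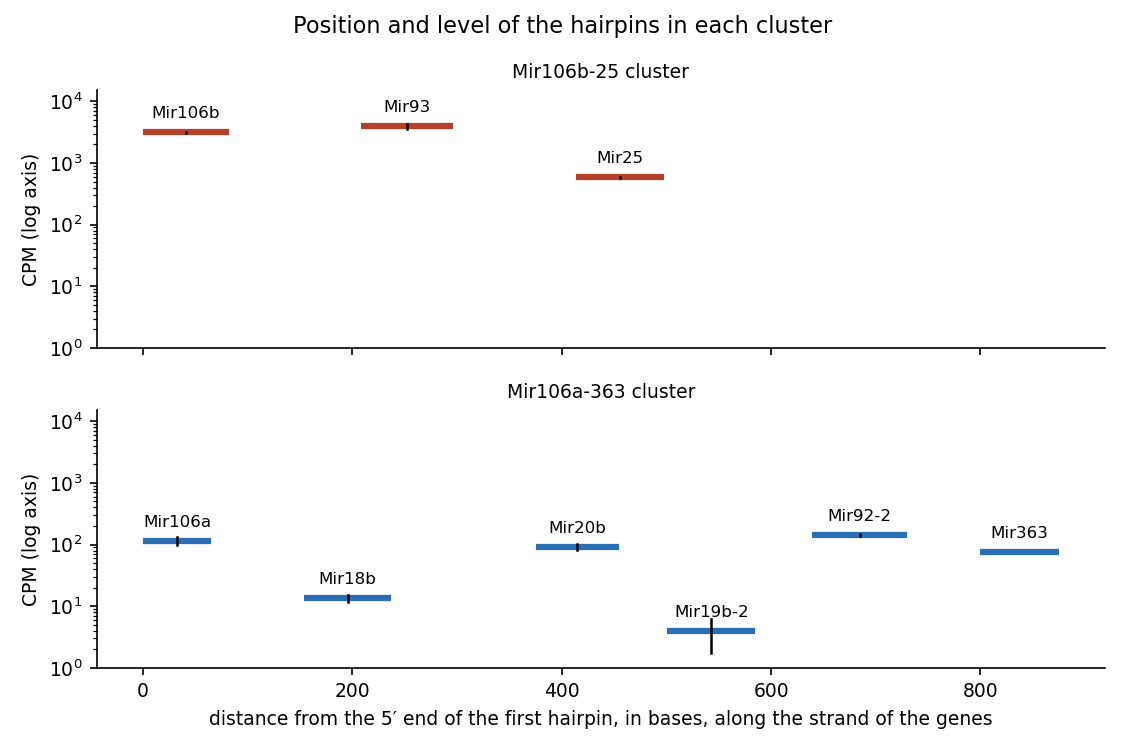
Position and level of the hairpins, with the distance in bases from the 5′ end of the first hairpin along the strand on the x axis and CPM on a log axis, Mir106b-25 above and Mir106a-363 below. Coloured bars span the hairpins at their mean level and black lines join the values of the 2 pups. The last hairpin of Mir106b-25, Mir25, is its lowest, whereas Mir19b-2 and Mir18b, inside Mir106a-363, are the lowest there by the counted reads. Reads of Mir19b-2 and Mir92-2 that fit a second locus are on no gene.

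The clusters were then compared seed by seed, since both hold the miR-17 and miR-25/92 seeds. The excess of Mir106b-25 was larger for the miR-17 seed than for the miR-25/92 seed in both pups. Mir106b and Mir93 together had 37.2 times the counts of Mir106a and Mir20b in replicate 2 (34.7 to 39.9) and 32.3 times in replicate 1 (30.1 to 34.7), a mean of 34.7 ± 3.48. Without Mir106a, whose arm is 1 base from that of Mir17, that ratio was 77.6. Mir106b and Mir93 were then both set against Mir20b alone, so the ratio had to rise.

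For the miR-25/92 seed, Mir25 had 7.90 times the counts of Mir363 in replicate 2 (7.06 to 8.86) and 7.55 times in replicate 1 (6.63 to 8.64), a mean of 7.73 ± 0.243. Against Mir92-2 and Mir363 together, Mir25 had 2.64 times the counts in replicate 2 and 2.68 times in replicate 1. Reads of miR-92a that fit both of its loci are missing from these ratios. The intervals of the miR-17 seed ratios did not overlap those of the miR-25/92 seed ratios in either library. In pairs matched by likeness, Mir93 had 44.1 times the counts of Mir20b in replicate 2 and 42.1 times in replicate 1. Mir106b had 31.5 times the counts of Mir106a in replicate 2 and 24.5 times in replicate 1.

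Set against Mir17-92, the third paralogous cluster, the members held unequal parts of the counts of each seed. Mir106b-25 had 43.9% as many counts as Mir17-92 in replicate 2 and 41.2% in replicate 1, and Mir106a-363 had 2.54% and 2.38%. Reads of miR-92a and miR-19b that fit both of their loci are missing from Mir17-92 and from Mir106a-363. No member of Mir106b-25 has a second locus. Any missing reads that came from Mir17-92 would lower the percentages of Mir106b-25. Of all counts on genes with the miR-17 seed, Mir106b and Mir93 held 34.7% in replicate 2 and 32.6% in replicate 1. Mir106a and Mir20b held 0.935% in replicate 2 and 1.01% in replicate 1. The remainder was on Mir17, at 8501 CPM in replicate 2 and 10645 CPM in replicate 1, and Mir20a. Mir6383, which also has this seed, was at 0 counts in both pups.

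For the miR-25/92 seed, Mir25 held 19.3% of the counts in replicate 2 and 18.6% in replicate 1. Mir92-2 and Mir363 held 7.29% in replicate 2 and 6.94% in replicate 1. By the counted reads alone, Mir106a-363 held a larger part of this seed than of the miR-17 seed. Other genes with the seed were Mir92-1, at 2106 CPM in replicate 2 and 2095 CPM in replicate 1, Mir32, at 169 and 174 CPM, and Mir92b, at 7.27 and 6.14 CPM. Mir367, best known from embryonic stem cells, was at 0 counts in both pups. Reads of miR-92a that fit both of its loci are missing from these shares. Which locus they came from cannot be told here, so the part of Mir106a-363 could be smaller or larger.

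Mir18b held 0.569% of the counts on genes with the miR-18 seed in replicate 2 (0.426% to 0.743%) and 0.683% in replicate 1 (0.511% to 0.895%), and Mir18 of Mir17-92 the rest. Mir18b and Mir18 are identical at 21 of 23 positions. The part of misread Mir18 reads in the count of Mir18b was not tested.

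**Figure D3:**
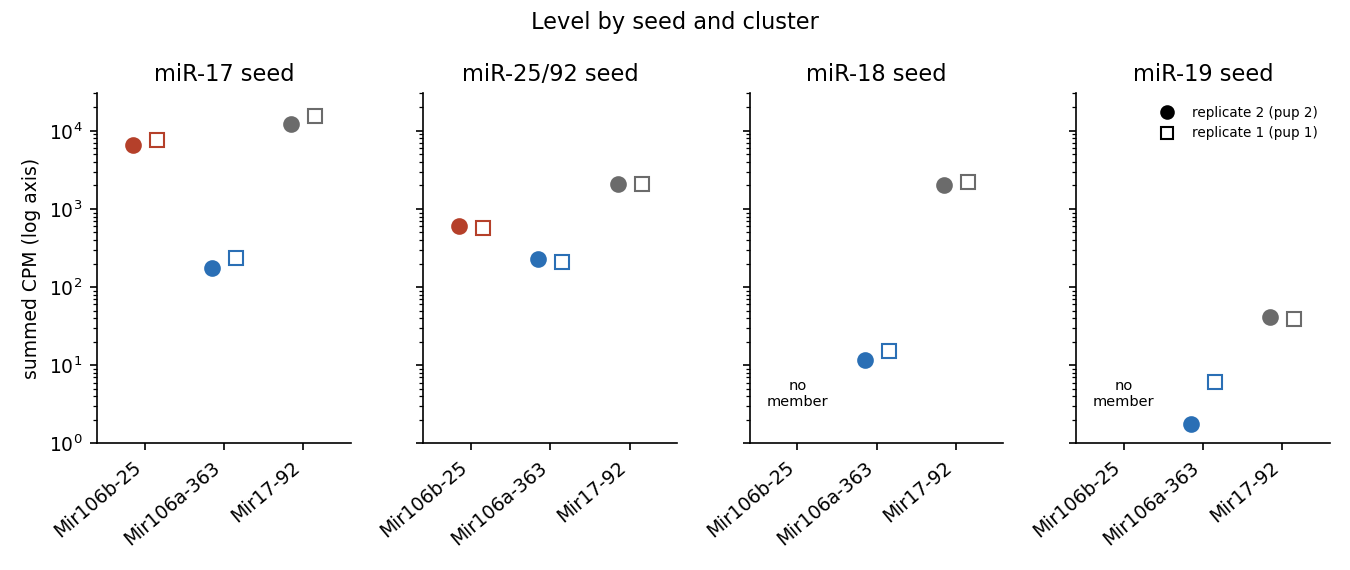
Summed CPM on a log axis of the genes with each seed in Mir106b-25 (red), Mir106a-363 (blue) and Mir17-92 (grey), with replicate 2 as a filled circle and replicate 1 as an open square. Mir106b-25 lies 34.7 times above Mir106a-363 on average for the miR-17 seed and 2.66 times above it for the miR-25/92 seed. The 2.66 includes Mir92-2, whose reads that fit both loci are missing, and Mir25 over Mir363 alone was 7.73. Mir106b-25 has no gene with the miR-18 or miR-19 seed.

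The pups were compared last, as the log2 ratio of replicate 2 over replicate 1. Both clusters were slightly lower in replicate 2, by nearly the same amount. The ratio was -0.17 for Mir106b-25 (-0.19 to -0.15) and -0.16 for Mir106a-363 (-0.26 to -0.07), and the difference between the clusters was -0.01. For comparison, among the 312 genes that reached 10 counts in each library the median was -0.01, and the median size of the ratio was 0.16. These are ratios of single genes, many with few counts, and give no measure of how far a sum over several genes varies. Each pup has 1 library, so what follows has no check by replicates and describes these libraries alone.

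Of the 8 members with at least 10 counts in both libraries, 4 were lower in replicate 2 by more than 1.2-fold and 0 were higher by that much. Over the 312 genes, 28.5% were past 1.2-fold, 16.0% lower and 12.5% higher. The 4 were Mir93, Mir106a, Mir20b and Mir18b. The interval lay wholly below 0 for 4 of the 8, Mir106b, Mir93, Mir106a and Mir20b, against 20.8% of the 312 genes, and wholly above 0 for 0, against 19.9%. Members of a cluster are neighbours, some share a seed, and they are not independent of each other.

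In Mir106b-25 the difference was carried by Mir93, whose log2 ratio was -0.30 (-0.33 to -0.27). Replicate 2 minus replicate 1 was -819 CPM for Mir93 and -908 CPM for the cluster. Mir106b had a ratio of -0.05 (-0.09 to -0.02), and Mir25 lay the other way at 0.07 (-0.01 to 0.16), an interval that includes 0.

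In Mir106a-363 the ratio was -0.42 for Mir106a (-0.61 to -0.23) and -0.37 for Mir20b (-0.58 to -0.15). Mir18b was at -0.38 with an interval of -0.96 to 0.20, and Mir19b-2, from 8 and 21 counts, at -1.80 (-3.18 to -0.57). Mir92-2 was at 0.14 (-0.03 to 0.31). Mir363 was at 0.01 (-0.23 to 0.25), or -0.01 when all uniquely mapped reads served as the total. The ratio of the whole cluster was -0.07 without Mir106a and -0.29 without Mir19b-2 and Mir92-2, so its size depended on which members were summed.

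Grouping the members by seed, a choice made after their values were seen, set the miR-17 seed genes below 0 and the miR-25/92 seed genes near 0. The summed log2 ratio of miR-17 seed genes was -0.19 in Mir106b-25, -0.40 in Mir106a-363 and -0.33 in Mir17-92. For the miR-25/92 seed it was 0.07, 0.09 and 0.01 in the same order of clusters. The 9 further genes listed were those of Mir17-92 with Mir32, Mir92b and Mir367, and 8 of them had at least 10 counts in both libraries. Of the 8, 2 (Mir17 and Mir20a) were lower by more than 1.2-fold and 0 were higher. Over the 312 genes, 16.0% were lower and 12.5% higher by that much. With 8 genes, 2 is near that share. The summed log2 ratio of leukocyte markers was -0.12, of erythroid markers -0.04 and of hepatocyte markers 0.05. That of muscle markers was 2.89, by far the largest of the lists. Within the leukocyte, erythroid and hepatocyte lists, genes went opposite ways. Mir150, Mir144 and Mir122 were higher in replicate 2, and the other genes of their lists were lower. The part of these lists in the differences of the members was not tested.

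**Figure D4:**
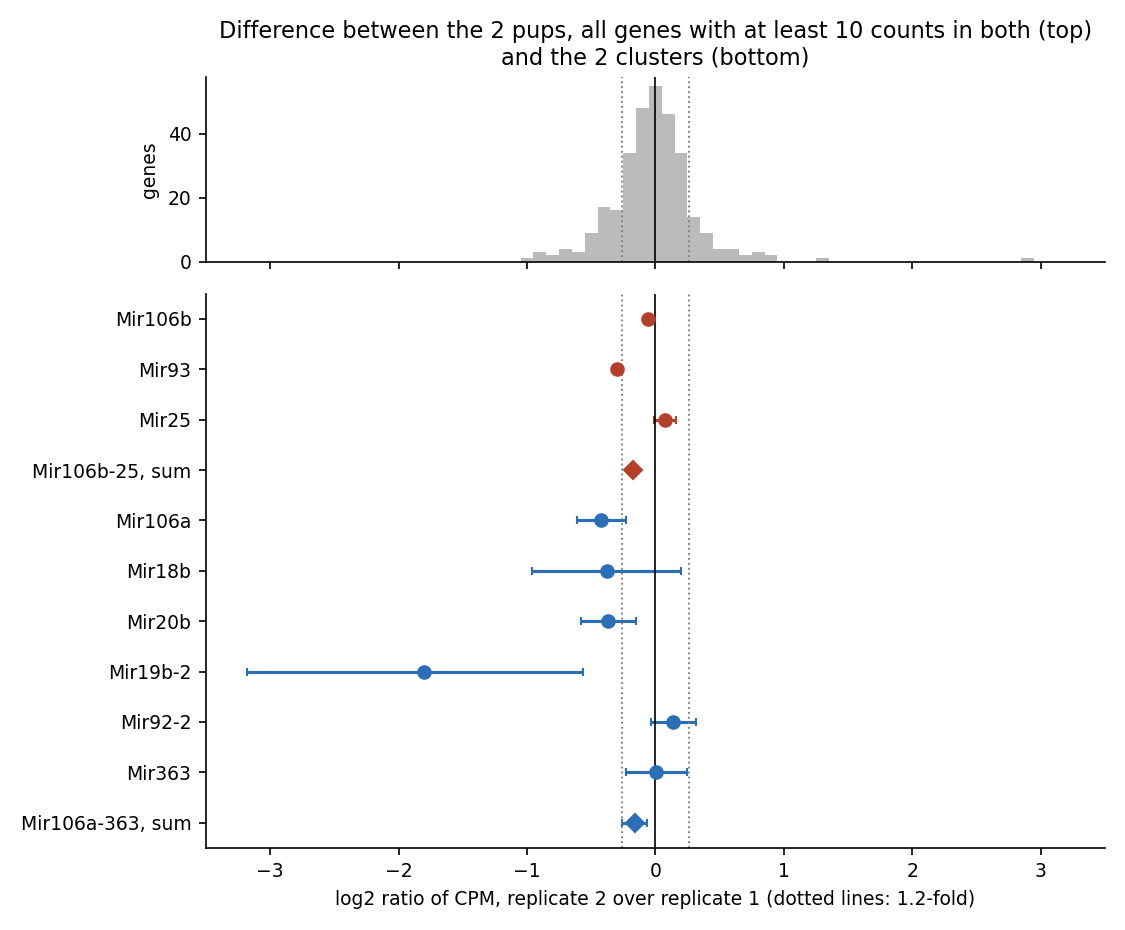
Log2 ratio of CPM in replicate 2 over replicate 1, with all 312 genes of the comparison as a histogram above and the members (circles) and cluster sums (diamonds) below. Bars are exact 95% intervals for counting error and dotted lines mark 1.2-fold. The cluster sums lie at -0.17 and -0.16, with Mir93, Mir106a and Mir20b left of them and Mir25, Mir92-2 and Mir363 right of 0.

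Genes at the level of the highest member of each cluster were named by their distance in log2(CPM + 1) over the 2 libraries. Nearest to Mir93 were Mir20a (distance 0.13), with 3722 CPM in replicate 2 and 4677 CPM in replicate 1, then the erythroid gene Mir451a (0.19) and Mir154 (0.20). Nearest to Mir92-2 were Mir10b (0.19), with 171 CPM in replicate 2 and 134 CPM in replicate 1, then Mir330 (0.21) and Mir377 (0.22). With 2 libraries this describes likeness of level.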

How the data were processed

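MicroRNA sequencing libraries of 2 newborn mouse livers were used. The deposited values are raw counts of reads for each microRNA gene, made on mm10 with the GENCODE M4 annotation according to the text the authors deposited. The aligner and counting program: not given in the sources used here. Counts on the gene strand were used, and the meaning of the 3 count columns was taken from their sums. Reads on no gene made up 9.92% of uniquely mapped reads in replicate 2 and 8.87% in replicate 1 and stayed out of totals. Symbols and positions came from GENCODE M21, which named 1894 of 1973 identifiers, and the 79 others held 0 counts.

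Counts were scaled to CPM. Ratios have exact Clopper-Pearson 95% intervals (scipy 1.17.1), conditional on the total. The interval and fold calculations were tested on simulated data. A quasi-likelihood test was not possible with 1 group. Alternatives were unstranded counts, TMM totals (edgeR 4.0.16), DESeq2 1.42.0 size factors, totals without Mir122 or of all uniquely mapped reads, other filters and pseudocounts, and each pup alone, plus leaving out Mir106a, added after the data were seen. Named genes were the 9 members, 9 related genes and the 3 nearest in level to the highest member of each cluster, plus Mir122 and the other markers. The members and lists were chosen with earlier results of these data known.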

Additional observations from a re-analysis of the deposited data

How the results depend on the processing

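No alternative listed here reversed a direction of a cluster value. Of 50 alternative values, 12 could not move by construction: each pup alone lies within the SD of 2 pups, and no member of Mir106b-25 has a second locus. Of the other 38, 24 stayed within the spread or interval of the reported value, or within 1.5 times for a count. The ratio of Mir106b-25 to Mir106a-363 (17.3) became 26.1 without the members that have a second locus and 23.3 without Mir106a, and ran from 17.2 to 17.4 with each pup alone. The miR-17 seed ratio (34.7) became 77.6 without Mir106a, with Mir106b and Mir93 set against Mir20b alone. Leaving out members of Mir106a-363 can only raise these ratios. By pup, the miR-17 seed ratio ran from 32.3 to 37.2 and the ratio of Mir25 to Mir363 from 7.55 to 7.90. The Mir106b-25 level ran from 7202 to 8110 CPM by pup, and became 11748 CPM with totals without Mir122 and 6939 CPM per uniquely mapped reads. The Mir106a-363 level ran from 418 to 467 CPM by pup, and became 679 CPM without Mir122 in the total, 401 CPM per uniquely mapped reads, 295 CPM without the members with a second locus and 329 CPM without Mir106a. The log2 ratio between the pups became -0.14 for Mir106b-25 without Mir122 in the total and -0.29 for Mir106a-363 without the members with a second locus. Genes past 1.2-fold numbered 89 of 312 (28.5%). With no filter beyond 1 count in either library and log2(CPM + 1), they numbered 318 of 656 (48.5%). They were 37 of 221 (16.7%) with at least 100 counts in both libraries and 46 of 312 (14.7%) with log2(CPM + 10). Apart from alternatives that change the total, the members or the filter by construction, the cause was not tested. No paired analysis was possible because there is 1 group. Depth limits Mir19b-2 and Mir18b most, at 8 to 53 counts a library.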

Other observations

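Counts on hairpins with the miR-19 seed were low in both clusters that hold them. Those of Mir19b-2 and Mir19b-1 leave out reads within their common letters, which are on no gene. Together, Mir19b-2, Mir19a and Mir19b-1 came to 43.4 CPM (replicate 2) and 45.6 CPM (replicate 1). Mir19a had 32.6 CPM in replicate 2 and 29.5 CPM in replicate 1, in a cluster where Mir17 had 8501 CPM (replicate 2) and 10645 CPM (replicate 1). The arms of Mir19b-1 and Mir19b-2 have the same letters at both loci, whereas the letters of the Mir19a arm were found at no other microRNA locus of the RefSeq table. On the opposite strand of the 9 members, 0 counts were found in replicate 2 and 2 in replicate 1, 1 each at Mir25 and Mir92-2.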
